A study of Macaca mulatta with 22 samples.

Results

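COX1, COX2, COX3, CYTB and ATP6 are protein-coding genes of the mitochondrial genome, and all carried m6A peaks in the prefrontal cortex of infant rhesus macaques, those of COX1 and COX2 usually near the top of an animal's list. They are 5 of the 3671 genes with at least 1 m6A peak in any of 11 peak lists, and hold 79 of the 10069 listed peaks. The peaks were taken from the mitochondrial chromosome by the gene that each list names. The genes were chosen by the presence of listed peaks and by their known high fold enrichment in these same animals, so the levels of enrichment are given as a description. The sevoflurane group held 5 animals, of which 3 were female and 2 male. They inhaled 2.5 to 3% sevoflurane, a volatile anaesthetic, for 4 hours at about postnatal day 7 and again at days 21 and 35. The control group held 6 animals, 4 female and 2 male. All 11 animals are labelled postnatal day 35, and each list came from 1 animal's cortical tissue, with about 20 µg of total RNA taken for fragmentation and antibody pull-down. No genotype or strain is given, and what the controls inhaled is not described.

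N6-methyladenosine, or m6A, is a methylated adenosine that antibodies can pull down from fragmented RNA, so that a stretch of transcript enriched over its background is called as a peak. Mitochondrial mRNAs are cut out of long transcripts of the mitochondrial genome, largely at the tRNAs that lie between them, and are translated inside the organelle. The proteins of COX1, COX2 and COX3 form the core of cytochrome c oxidase (complex IV), that of CYTB belongs to complex III, and that of ATP6 to the ATP synthase, and neurons depend heavily on this chain for ATP.

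The lists held 852 to 1673 peaks in sevoflurane animals and 452 to 1210 in control animals, while the mitochondrial chromosome held 15 to 21 peaks in sevoflurane animals and 14 to 20 in control animals. Peaks of the 5 genes numbered 6.6 ± 0.548 per sevoflurane list (SD, n = 5) and 7.67 ± 0.816 per control list (SD, n = 6). They made up 0.562% of the peaks in sevoflurane lists and 1.31% in control lists, on average. The fold enrichment below is the authors' ratio for each peak. It is not an RNA level, and no RNA level enters here. The tissue is bulk, so that a change in the share of mitochondria-rich cells and a change within cells cannot be told apart. Of 25 markers of neurons, astrocytes, oligodendrocytes, microglia and endothelium, 6 had a peak in any list, among them the neuronal CAMK2A in 2 sevoflurane and 2 control animals and SYT1 in 0 sevoflurane and 2 control animals. A peak is no measure of a marker's level, so the makeup of the tissue was not tested.

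COX1 encodes the subunit of complex IV in which oxygen is reduced at a haem and copper centre. The gene (ENSMMUG00000028689) spans bases 5850 to 7418 of the mitochondrial chromosome on the plus strand in rheMac8, a length of 1569 bases. Its m6A signal lay at its ends. A peak near the start covered bases 5880 to 5998 in all 11 animals, and a peak near the end covered bases 7152 to 7388 in all 11. Between them, 650 bases from 6088 to 6737 carried no peak in any animal. A weaker middle peak was listed in S3 among sevoflurane animals and in B and C among control animals, with fold enrichments between 4.19 and 31.8. In the region test, the middle peak stood at 1 of 5 sevoflurane animals and 2 of 6 control animals (Fisher's exact test, p = 1). A region present in 3 animals cannot be called by this test, however they are split. Over all 1265 regions present in 2 to 9 animals, 1.5% were called by this test.

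The end peak of COX1 had the higher fold enrichment of the pair in 11 of 11 animals. It reached 77.7, 98.7, 221, 93.7 and 108 in sevoflurane animals D, F, S1, S2 and S3, and 56.1 at the lowest, 128.7 at the median and 499 at the highest in control animals. The start peak reached 55.0, 51.8, 67.5, 23.0 and 71.6 in the same sevoflurane animals, and 6.31 at the lowest, 47.65 at the median and 293 at the highest in control animals. The end peak was therefore 1.15 to 36.0 times as enriched as the start peak, with a median of 1.91 times. The widest gap belonged to control animal C1, in which the end peak had 227 and the start peak 6.31. The order by p-value was not the order by fold. The start peak had the lower p in 3 sevoflurane and 2 control animals. Its log10 p reached -1070 in sevoflurane animal S1 and -1110 in control animal A, against -128 and -57.4 for the end peak in those animals. In 10 of 11 animals the annotation column placed the end peak in the neighbouring gene ENSMMUG00000028688, although the list's own gene was COX1.

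**Figure D1:**
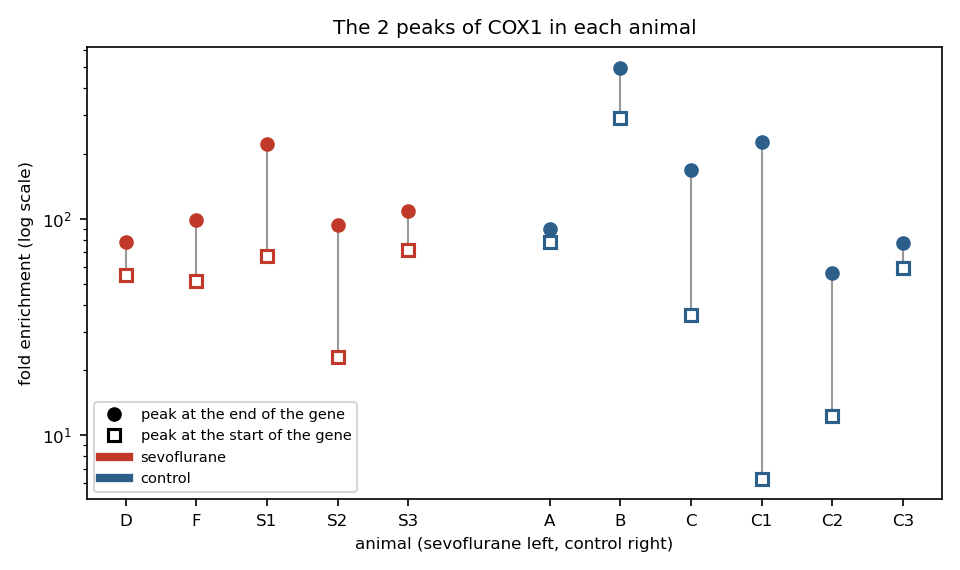
Fold enrichment (log axis) of the COX1 peak at the gene's end (filled circles) and at its start (open squares), joined by a line for each animal, with the 5 sevoflurane animals on the left and the 6 control animals on the right. The filled circle lies above the open square in all 11 animals, by 1.15 times in A and by 36.0 times in C1.

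By its strongest peak, COX1 averaged 6.80 ± 0.58 on the log2 scale in sevoflurane animals and 7.12 ± 1.17 in control animals (SD, n = 5 and 6). The sevoflurane values all lay inside the control range. The difference was -0.32 on the log2 scale, which is 0.799-fold (95% interval from 0.302 to 2.00, p = 0.610 by exact permutation, adjusted p = 0.785). Of the 81 genes with a peak in all 11 lists, 4.94% were called by this test, all higher after sevoflurane, and COX1 was not among them. The peaks covered 493 ± 44.8 bases of COX1 in sevoflurane animals and 525 ± 98.8 bases in control animals (exact permutation test, p = 0.587, adjusted p = 0.766, where 11.1% of the 81 genes were called). The sign for the start peak alone was the opposite one, at 0.35 on the log2 scale (exact permutation test, p = 0.729).

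COX2 encodes the subunit that takes electrons from cytochrome c through its copper centre. The gene (ENSMMUG00000028686) spans bases 7532 to 8215 on the plus strand, 684 bases. In contrast to COX1, it was covered almost from end to end. The peaks covered 93.1% ± 6.53 of its length in sevoflurane animals and 92.1% ± 11.4 in control animals (SD, n = 5 and 6). A single peak was listed in each animal but C1, whose peak was split in the middle of the gene and left 477 bases covered. Bases 7621 to 7799 and 7918 to 8156 lay under a peak in all 11 animals.

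The strongest COX2 peak reached 128, 47.7, 75.4, 71.5 and 417 in sevoflurane animals D, F, S1, S2 and S3, and 13.0 at the lowest, 175.55 at the median and 380 at the highest in control animals. S3 was the highest of all animals and control C1 the lowest, and the groups overlapped. On the log2 scale the gene averaged 6.74 ± 1.21 in sevoflurane animals and 6.62 ± 2.02 in control animals (SD, n = 5 and 6). The ratio was 1.08 (95% interval from 0.188 to 6.18, p = 0.929 by exact permutation, adjusted p = 0.964), an interval that takes in differences of several-fold in either direction. Bases under peaks differed by 0.02 on the log2 scale (exact permutation test, p = 0.898, adjusted p = 1). The 2 peaks in C1 also went apart in fold and p: that of 13.0-fold had a log10 p of -86.4, and that of 2.82-fold one of -705.

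COX3 encodes a core subunit of complex IV that holds none of its redox centres. The gene (ENSMMUG00000028682) spans bases 9198 to 9981 on the plus strand, 784 bases. Its common stretch was the last 175 bases, 9807 to 9981, which lay under a peak in all 11 animals. A separate earlier peak was listed in 1 sevoflurane and 4 control animals, but not at the same place. It began at base 9227 in S2, A and B, ran from 9198 to 9720 in C and from 9372 to 9488 in C3. By 50% reciprocal overlap the peak from 9227 was a region at 1 of 5 sevoflurane and 2 of 6 control animals. In sevoflurane animal S3 a single peak of 755 bases ran from 9227 to the gene's end, and in control animal C2 only the last 175 bases were covered. The strongest peak reached 57.2, 50.2, 22.6, 23.4 and 108 in sevoflurane animals D, F, S1, S2 and S3, and 11.1 at the lowest, 68.1 at the median and 291 at the highest in control animals. The sevoflurane values all lay within the control range. COX3 averaged 5.46 ± 0.95 in sevoflurane animals and 6.11 ± 1.85 in control animals on the log2 scale (SD, n = 5 and 6), which is 0.637-fold (95% interval from 0.142 to 2.74, p = 0.498 by exact permutation, adjusted p = 0.761). It had 1.2 ± 0.447 peaks in sevoflurane animals and 1.67 ± 0.516 in control animals (exact permutation test, p = 0.242, adjusted p = 1, where 3.7% of the 81 genes were called on the number of peaks). Bases under peaks averaged 552 ± 142 in sevoflurane animals and 490 ± 211 in control animals, a log2 difference of 0.29 (exact permutation test, p = 0.496, adjusted p = 0.751).

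CYTB encodes cytochrome b, the subunit of complex III that binds ubiquinol and ubiquinone. The gene (ENSMMUG00000028670) spans bases 14741 to 15881 on the plus strand, 1141 bases. Its peak started at or near the gene's first base in every animal and covered bases 14770 to 15033 in all 11. Where that peak ended early, a later one followed it from base 15209. The later peak was listed as separate in 1 sevoflurane animal, D, and in 4 control animals, B, C1, C2 and C3. In the others 1 peak ran across the gap, to between base 15238 and base 15735. By 50% reciprocal overlap the separate later peak was a region of its own, at 1 of 5 sevoflurane and 4 of 6 control animals (Fisher's exact test, p = 0.242, adjusted p = 0.647). The last bases of the gene were bare except in F, which had a small peak of 22.7-fold from 15793 to the gene's end.

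The first CYTB peak had the lowest p-value of any peak in the 5 genes in 8 of 11 animals, a COX1 peak in S1 and A and a COX2 peak in C3. Its log10 p lay between -2370 and -360 in sevoflurane animals and between -4990 and -322 in control animals. Its fold enrichment was nonetheless moderate. The strongest CYTB peak reached 27.7, 54.5, 41.9, 51.2 and 73.7 in sevoflurane animals D, F, S1, S2 and S3, and 7.48 at the lowest, 71.85 at the median and 192 at the highest in control animals. The sevoflurane animals sat within a narrow band inside the control range. The log2 mean was 5.57 ± 0.52 in sevoflurane animals and 5.67 ± 1.74 in control animals (SD, n = 5 and 6). The ratio was 0.928 (95% interval from 0.261 to 3.70, p = 0.905 by exact permutation, adjusted p = 0.964). Its covered bases, 814 ± 179 in sevoflurane animals and 766 ± 83.3 in control animals, gave a log2 difference of 0.07 (exact permutation test, p = 0.686, adjusted p = 0.830).

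ATP6 encodes the ATP synthase subunit beside the rotating ring, through which protons pass. The gene (ENSMMUG00000028683) spans bases 8518 to 9198 on the plus strand, 681 bases, and shares its last base with the first base of COX3. It was the one gene of the 5 without a peak in every animal. A peak was listed in 4 of 5 sevoflurane animals and 5 of 6 control animals, with none in sevoflurane animal F or control animal C3 (Fisher's exact test, p = 1). The list of F held 1178 peaks and that of C3 held 1210, and why they lack an ATP6 peak was not tested. Over the 1486 genes with a peak in 2 to 9 animals, 1.82% were called on presence. A gene with a peak in 9 of the 11 animals, as ATP6, cannot be called by this test at any split.

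The midpoint of the ATP6 peak lay between 30.4% and 58.6% of the gene's length, and the peak began at the gene's first base in S1 and A. Bases 8843 to 8873 were covered in all 9 animals that had it, and the last 207 bases, next to the COX3 gene, were covered in none. Its fold enrichment was 35.2, 27.3, 23.4 and 24.5 in sevoflurane animals D, S1, S2 and S3, and 33.7, 56.6, 26.9, 5.26 and 30.3 in control animals A, B, C, C1 and C2. The groups overlapped, with C1 lowest and B highest. Over the 9 animals with a peak, F and C3 being left out, the ratio was 1.13 (95% interval from 0.481 to 3.59, p = 0.929 by exact permutation, adjusted p = 0.973). Of the 331 genes tested in this way, with a peak in at least 3 animals of each group, 4.23% were called. Bases under the ATP6 peak gave a log2 difference of 0.26 over the same 9 animals (exact permutation test, p = 0.579, adjusted p = 0.849, where 9.37% of the 331 genes were called). Removing control C1 turned the sign of the fold difference, to -0.37 on the log2 scale.

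**Figure D2:**
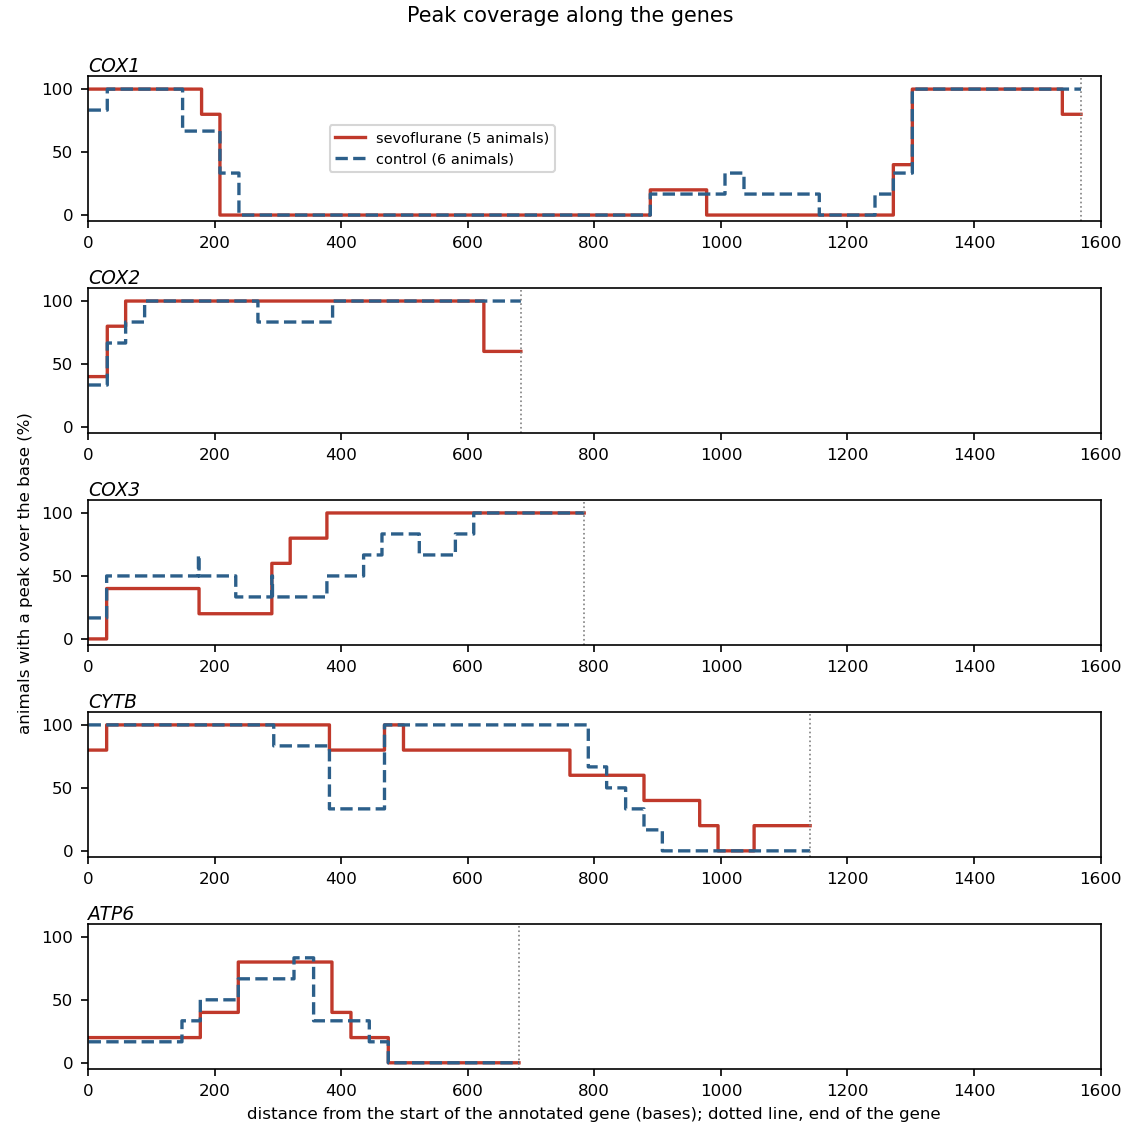
Share of animals (%) with a peak over each base of the 5 genes, by distance from the start of the annotated gene in bases, for 5 sevoflurane animals (solid line) and 6 control animals (dashed line), with a dotted line at each gene's end. COX1 is covered at its ends, COX2 along its length, COX3 towards its end, CYTB from its start and ATP6 short of its last 207 bases, in both groups.

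None of the 5 genes was called on fold enrichment or covered bases, and none on the number of peaks or on presence. Some of these outcomes were fixed. A presence call was out of reach, with a peak in all 11 animals for 4 genes and in 9 for ATP6. The number of peaks could not be called for ATP6, which had 1 in each of those 9 animals, or for COX2, where only C1 had more than 1. Among the 4 genes tested in all 11 animals, 1 of 4 log2 fold differences was above 0 and their median was -0.22. Over all 81 genes tested, 64 differences were above 0 and the median was 0.36. The 5 mitochondrially encoded complex I genes in the same test gave 4 of 5 above 0, a median of 0.16 and 0 calls (the exact permutation test at an unadjusted p below 0.05). When each list's own median was taken off, the median over the 81 genes became 0.57, and the CYTB difference turned to 0.10 while those of COX1 and COX3 stayed below 0. None of the 81 genes passed adjustment, with a smallest adjusted p of 0.175.

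**Figure D3:**
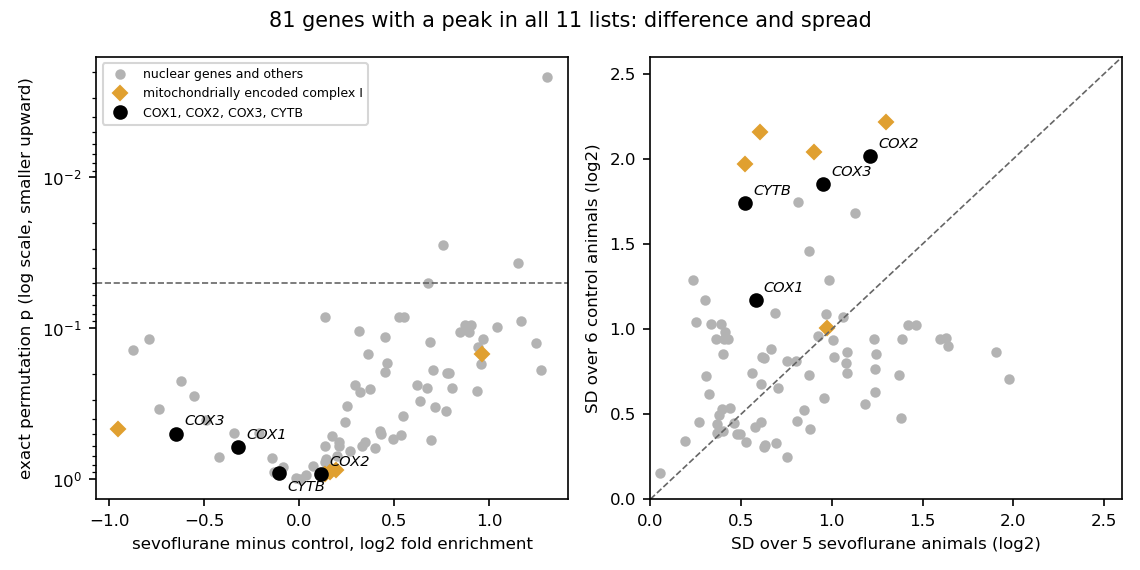
Left, difference in log2 fold enrichment (sevoflurane minus control) against the exact permutation p (log axis, smaller upward, dashed line at 0.05) for the 81 genes with a peak in all lists. Right, SD over the 6 control animals against SD over the 5 sevoflurane animals for the same genes, with a dashed line of equality. The 4 labelled genes lie below the dashed line of the left panel and above the line of equality in the right panel.

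Taken as whole groups, the control animals were more spread out than the sevoflurane animals for each of the 5 genes. The SD of log2 fold enrichment over sevoflurane animals was 0.58 for COX1, 1.21 for COX2 and 0.95 for COX3, against 1.17, 2.02 and 1.85 over control animals. For CYTB it was 0.52 in sevoflurane animals and 1.74 in control animals, and for ATP6 0.26 over 4 sevoflurane animals and 1.29 over 5 control animals. The control SD was the larger in 44 of the 81 genes (54.3%) and in all 5 complex I genes of the mitochondrial genome. Control animal C1 was the lowest of all animals for COX2, COX3, CYTB and ATP6, and the second highest for COX1. It also had the shortest list, at 452 peaks. Without C1 the control SD was 1.25 for COX1, 1.59 for COX2, 1.48 for COX3, 1.22 for CYTB and 0.47 for ATP6, still above that of the sevoflurane animals in each. The difference in spread was not tested, and for COX2 it did not hold within the naming styles taken up next.

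The animals carry names of 2 styles in the labels, a single letter or a letter with a number, and COX2 and CYTB split the controls along that line. COX2 reached 380, 301 and 308 in control animals A, B and C, and 13.0, 39.7 and 50.1 in C1, C2 and C3. CYTB reached 106, 192 and 120 in A, B and C, and 7.48, 25.7 and 37.7 in C1, C2 and C3. The single-letter controls were all above the numbered ones in 14 of the 81 genes (17.3%) and all below them in none. Those 14 include COX2, CYTB and the complex I genes ND1, ND2 and ND5. Within each style the COX2 controls were less spread than the sevoflurane animals. The log2 SD was 0.19 over 3 single-letter controls and 1.01 over 2 sevoflurane animals, and 1.04 and 1.45 over 3 numbered animals each. For CYTB this held among single-letter animals (0.45 in control, 0.69 in sevoflurane) and not among numbered ones (1.22 and 0.41). For COX1 and COX3 the control SD was the larger in both styles.

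Set against controls of the same naming style, the treatment difference was above 0 in numbered animals and below 0 in single-letter ones in all 4 genes tested, and its sign turned in 30 of the 81 genes (37.0%). In COX2 the numbered sevoflurane animals were all above the numbered controls, by 2.15 on the log2 scale, and the single-letter ones all below the single-letter controls, at -2.07 (exact permutation test within each style, p = 0.10, the smallest that either can give). In CYTB the corresponding differences were 1.48 and -1.79, again without overlap in either style and with p = 0.10 in each exact permutation test. Over the 81 genes, the treatment groups did not overlap in 9 genes (11.1%) among numbered animals and in 22 (27.2%) among single-letter ones, and in 3 genes they were apart in opposite directions in the 2 styles. The difference between styles, 4.22 for COX2 and 3.28 for CYTB, had an exact permutation p of 0.035 and 0.025 and an adjusted p of 0.759 in each. Of the 81 genes 3.7% were called on this difference, namely COX2, CYTB and ND5. It was 1.59 in COX3, from 0.19 in numbered and -1.40 in single-letter animals (exact permutation p = 0.35). In COX1 it was 1.56, from 0.40 in numbered and -1.16 in single-letter animals (exact permutation p = 0.165), and neither was called. This split was examined after the values were seen. What the naming styles stand for is not described, and all 3 numbered controls are female, so that style and sex are partly tied.

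**Figure D4:**
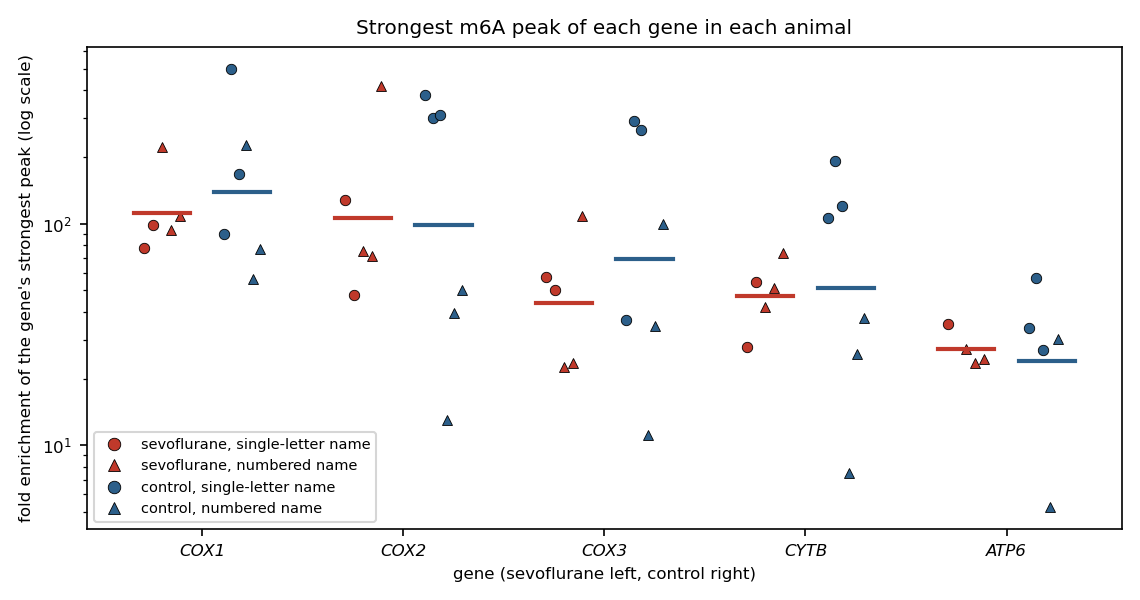
Fold enrichment (log axis) of the strongest peak of each gene in each animal, sevoflurane left and control right within each gene, with circles for animals with single-letter names, triangles for numbered names and bars for the geometric means. The groups overlap in every gene, and in COX2 and CYTB the control circles all lie above the control triangles.

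By sex, the female minus male difference of the treatment differences was 3.02 on the log2 scale in CYTB (exact permutation test, p = 0.0533, adjusted p = 0.393), where 12.3% of the 81 genes were called and none of the 4 tested here was. CYTB differed by 0.95 between sevoflurane and control females (exact permutation test, p = 0.457). It differed by -2.07 between sevoflurane and control males (exact permutation test, p = 0.333, the smallest that the 6 splits of the males can give). The sex difference was 2.87 in COX2 (p = 0.193), 1.35 in COX3 (p = 0.487) and 0.51 in COX1 (p = 0.680, all by exact permutation).

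The 5 genes differed in how high they stood within the lists. COX1 held a median rank of 9 by fold enrichment among the genes of a list, with a range of 1 to 15 over 11 animals. The median rank was 12 for COX2, 33 for CYTB, 36 for COX3 and, over 9 animals, 85 for ATP6. The median fold enrichment followed the same order, at 98.7 for COX1, 75.4 for COX2, 51.2 for CYTB, 50.2 for COX3 and 27.3 for ATP6. Neighbours in this order crossed between animals. COX1 stood above COX2 in 7 of 11 animals, COX2 above CYTB in 10 of 11, CYTB below COX3 in 7 of 11, and COX3 above ATP6 in 7 of 9 with 1 tie. Both COX1 and COX2 stood above ATP6 in all 9 animals that had an ATP6 peak.

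Beyond their strength, many of the peaks reached an end of their gene, though few in ATP6. Whether the peak calling cut them at annotated gene ends is not described and was not tested. Of the 79 peaks, 55 (69.6%) started at the first or stopped at the last base of the gene that the list names. By the ends of the annotation column's gene, the share was 55.2% of the 87 peaks in complex I genes of the mitochondrial genome. It was 4.46% of the 9372 nuclear peaks for which the list and the annotation column named the same gene. These shares were thus not measured alike, and in COX1 the list and the annotation column differed for 10 peaks. Within the 79 peaks, the share by gene ran from 22.2% of ATP6 peaks to 83.3% of COX2 peaks. All 79 were classed as exonic. The log10 false discovery rate was not finite, as for a rate of 0, in 24 of the 79 peaks (30.4%), 9 of them in COX2, 10 in CYTB and 5 in COX1. The share was higher, at 41.4%, in the complex I genes of the mitochondrial genome, and 0.192% in nuclear peaks. The median fold enrichment was 50.1 over the 79 peaks, 63.2 over those of the complex I genes and 5.96 over nuclear peaks.

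Across the 11 animals, CYTB moved most like the complex I gene ND5, which lies upstream of it on the chromosome (Spearman's rho = 0.91), then like COX2 (0.75) and PTMS, the gene of parathymosin (0.73). COX2 was most like ND5 (0.81), PABPN1, the gene of a nuclear poly(A)-binding protein (0.76), and CYTB (0.75). COX3 was most like RHOBTB2 (0.81), PABPN1 (0.73) and ADGRL1 (0.68), which lie on nuclear chromosomes, and CYTB came next, at 0.67. COX1 stood apart, with a highest rho of 0.50, to a gene listed as Metazoa_SRP, then 0.45 to ND5 and 0.39 to CYTB, and 0.07 to COX3. Over the 6 pairs of COX1, COX2, COX3 and CYTB the median rho was 0.50, against 0.19 over all pairs of the 81 genes. It was 0.40 over the 20 pairs of these genes with the 5 complex I genes of the mitochondrial genome, so the likeness was not particular to them. These values describe 11 animals and carry no test, and values of an animal come from 1 library and list.

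The nuclear genes whose proteins join the same complexes had few peaks. Of 38 nuclear subunit genes of complexes III, IV and ATP synthase, 3 had a peak in any list. COX7A1 and COX7B, small subunits of complex IV, each had one in 1 sevoflurane animal and no control animal, and ATP5F1A, the alpha subunit of ATP synthase, in no sevoflurane animal and 1 control animal. None of the 9 complex III genes had one. Of 18 nuclear genes for mitochondrial transcript handling and complex IV assembly, MTPAP, the mitochondrial poly(A) polymerase, and COX15, a haem A synthesis factor, each had a peak in 1 sevoflurane animal. Of the 8 other protein-coding mitochondrial genes, ND1, ND2, ND4, ND5 and ND6 had peaks in all 11 animals. ND3 had one in 5 sevoflurane and 4 control animals (Fisher's exact test, p = 0.455), where 9 animals are too many for a call. ND4L and ATP8, both short genes that overlap a neighbour, had none.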

How the data were processed

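Fragmented total RNA was immunoprecipitated with an m6A antibody and sequenced as stranded libraries beside input libraries, per the labels' protocols. The 11 input samples carry no table and were not analysed here. The assembly was rheMac8, per the submitters' processing notes, which also list HISAT2 2.1.0 and StringTie, and for trimming cutadapt and Trim Galore 0.5.0. How peaks were called, and over what background a fold is taken, is not given in the sources used here.

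Each deposited table lists 1 animal's peaks with a fold enrichment (a ratio), a p-value and 2 scores, the log10 of that p-value and of the false discovery rate, per the file headers. All of these are the authors' own values, cut at a p-value of at most 0.001 in the files. No read counts are given, so the depth is unknown and the number of animals limits the precision. Peak starts count from 0, and 1 was added to every printed start. Peaks were assigned by the name column. The 3 repeated entries, none in these genes, were counted once in a gene's number of peaks and stayed in the totals of listed peaks.

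A gene's value was the log2 fold enrichment of its strongest peak, its number of peaks, or the log2 of its bases under peaks. Group differences were tested by exact permutation of the animals over every split, two-sided, with Benjamini-Hochberg adjustment over all 81 genes with a peak in every list, or over all 331 with a peak in at least 3 animals of each group. A call is an unadjusted p below 0.05. Presence in 2 to 9 animals was tested with Fisher's exact test. Intervals of 95% invert the exact test. Regions join peaks that share at least 1 base on 1 strand. Sex was relabelled within treatment, and naming style likewise, the second an addition made after the values were seen. The exact permutation test without strata, its interval, Fisher's test and the joining of regions were tried on simulated data. The relabelling by sex or naming style, the strata and the replicate block were not. Python 3.11.15, numpy 2.4.6, pandas 2.3.3, scipy 1.17.1 and matplotlib 3.10.9 were used.

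The 5 genes, the gene lists and the tests were chosen with earlier results of these data known. For likeness, the 3 genes of highest Spearman rho over the animals were named for each gene, those without a symbol left out. Replicate numbers in the labels (C1 to C3 and S1 to S3) were not used to pair the animals in the main tests. The correlations of same-numbered animals' deviations from their group means over the 81 genes were 0.10, 0.06 and 0.03. Those of different-numbered animals ran from -0.16 to 0.17. Such correlations cannot decide whether the animals were paired. The alternatives were the mean over peaks, a log2 value minus the list's median, the percentile in the list, peaks of p at most 1e-05, the annotation column's gene, strata by naming style and sex, the replicate block, 50% reciprocal overlap, and leaving out each animal. Added after the values were seen were the peak of lowest p, the peak at the start of COX1, and the stricter p for presence.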

Additional observations from a re-analysis of the deposited data

Results flagged for a closer look

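In COX2, control animal C1 stood apart from the other 5 controls in the bases under peaks. It had 477 bases, or 8.90 on the log2 scale, with a peak that began later than in the other controls and was split in the middle of the gene. It was the 1 value that stood apart among the 20 groups of values checked in this way, and chance gives about 1 in 20.

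The treatment difference turned in sign with naming style in all 4 genes tested, and the difference between styles had an unadjusted p below 0.05 in 2 of them. Over the 81 genes the sign turned in 30 (37.0%), and 3.7% were called on the difference between styles. Among the complex I genes of the mitochondrial genome, the sign turned the same way in ND2, ND5 and ND6 and did not turn in ND1 and ND4. In COX2 the numbered minus single-letter difference was 4.22 on the log2 scale (exact permutation p = 0.035, adjusted p = 0.759). In CYTB it was 3.28 (exact permutation p = 0.025, adjusted p = 0.759). Neither passed adjustment over the 81 genes, and both were found after the values were seen.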

How the results depend on the processing

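No call on any of the 5 genes was gained under any alternative run: the exact permutation p lay between 0.117 and 1 in 99 alternative tests of fold enrichment, between 0.0762 and 1 in 63 of the number of peaks, and between 0.21 and 1 in 63 of covered bases. Those on the number of peaks in ATP6 and COX2 could not have given a call. ATP6 never had more than 1 peak, and COX2 had more than 1 only in C1. The sign of the uncalled fold differences was not stable. For COX1 it turned with the mean over peaks (0.11), the percentile in the list (0.22 points), the annotation column's gene (0.46) and the start peak (0.35). For CYTB it turned after subtracting the list's median (0.10), with the percentile (4.75 points) and with naming style as a stratum (0.0266). With the replicate block over C1 and S1, C2 and S2, C3 and S3 the differences were 0.40 for COX1, 2.15 for COX2, 0.19 for COX3 and 1.48 for CYTB. These equal the differences among numbered animals given above, because the block holds only those animals. ATP6 with 2 pairs kept its sign. The p lay between 0.25 and 1 (exact permutation of signs, where 3 pairs cannot go below 0.25 and 2 pairs have a higher floor). Leaving out 1 animal gave -0.59 to 0.0443 for COX1, -0.47 to 0.50 for COX2, -0.66 to 0.27 for CYTB and -0.37 to 0.48 for ATP6, and COX3 kept its sign. Covered bases ran from -0.0546 to 0.065 in COX2, -0.0146 to 0.18 in CYTB and -0.019 to 0.55 in ATP6. The cause of these turns was not tested.

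Counts over all genes moved too. On fold enrichment, 4 calls of 81 became 15 after subtracting the list's median, 14 of 331 with genes in at least 3 animals of each group, and 1 to 8 without 1 animal (8 without S1, 1 without S2, 2 without C or C1). On the number of peaks, 3 calls became 0 of 67 at p of at most 1e-05, and 2 to 5 without 1 animal (5 without A). Calls on covered bases, 9 in all, ran from 5 to 15 (15 without S3, 5 without F, S2 or C). At p of at most 1e-05, gene presence gave 10 calls in place of 27 and region presence 11 in place of 19, with fewer genes and regions under test. The depth of the libraries is unknown, and 5 against 6 animals left the fold enrichment intervals of the 5 genes several-fold wide.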
